A study of Mus musculus with 6 samples.

Results

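Pericytes and smooth muscle cells wrap blood vessels, and 10 of their genes were described in whole melanoma tumours: 4 pericyte markers (Pdgfrb, Rgs5, Cspg4 and Notch3) and 6 genes of the smooth muscle contractile apparatus (Acta2, Tagln, Myh11, Cnn1, Mylk and Myl9). They were chosen by name, and all 10 were found among the 20938 genes of the deposited table. B16F10 cells, a mouse melanoma line, were injected subcutaneously in 200 µL of saline into a hind leg (the left one) of male C57BL/6 mice aged 6 weeks, and tumours were collected on day 19. There were 3 tumours of B16F10 cells labelled as overexpressing YKL-40, a secreted chitinase-like protein, and 3 control tumours, and all 6 carried the genotype label WT. The labels give neither the vector of the control cells nor the species of the YKL-40 sequence, nor do they say whether the 3 tumours of a group came from separate mice. The p-values therefore measure the spread between these libraries, which may be technical.

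Mural cells, the common name for pericytes and vascular smooth muscle cells, are recruited to new vessels when endothelial cells release PDGF-BB, which binds the receptor encoded by Pdgfrb. Their contractile genes are switched on by serum response factor, which binds a short DNA element called the CArG box together with the co-activators myocardin or the MRTF proteins. Tumour vessels are known for sparse or loosely attached mural cells. Acta2 and Tagln are also made by activated fibroblasts, and Cspg4, which encodes the proteoglycan NG2, is also known as a melanoma antigen in human tumours, so these genes alone do not name a cell type.

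The libraries were alike in scale. Their FPKM values (fragments per kilobase of transcript, scaled to the size of the library) summed to 468605 to 490955 in the YKL-40 group and to 469464 to 479586 in the controls. Between 11199 and 11301 genes reached 1 FPKM in a YKL-40 library and between 10900 and 11235 in a control. Read numbers are unknown, and depth estimated from genes of low value ran from 0.947 to 1.2 in the YKL-40 group and from 1 to 1.33 in the controls, relative to control 1. Chil1, the mouse gene of YKL-40, was listed at 0 in all 3 YKL-40 libraries, against 0.0644, 0 and 0.0242 FPKM in the controls (exact two-sided permutation p = 0.4). The group names below therefore rest on the labels alone. Of 10 melanocyte markers, all 10 were above 0 in every library and 0 passed the test described below, with 2 higher at an unadjusted p under 0.05, where 8.71% of all tested genes were, and a median change of 0.05. Among them was Pmel, a melanosome protein, at 4906 ± 753 and 3752 ± 122 FPKM (SD, n = 3 each) in the YKL-40 and control groups.

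None of the pericyte or contractile genes passed the test between the YKL-40 and control tumours. Of the 10 genes, 8 reached the mean of 1 FPKM needed for testing, and 0 of these 8 passed limma's test across all genes at an adjusted p of 0.05. That test called 49 of 11241 genes, or 0.436%, so 0 of 8 is near the background. The count over all genes ran from 0 without control 2 to 238 without YKL-40 library 2, and none of the 8 genes passed in any of these fits. At an unadjusted p under 0.05, 1 of the 8 was reached, against 18.0% of all tested genes. The groups overlapped for all 8, while they did not overlap for 24.4% of all tested genes. The median change of the 8 was -0.21 on the log2(FPKM + 1) scale (YKL-40 minus control), and that of all tested genes was -0.04. The median of the 8 had the other sign without YKL-40 library 1, at 0.17, and otherwise ran from -0.48 (without YKL-40 library 2) to -0.05 (without control 3, 7 genes tested) with 1 library left out. In whole tumours, fewer cells of a type and less RNA per cell cannot be told apart.

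**Figure D1:**
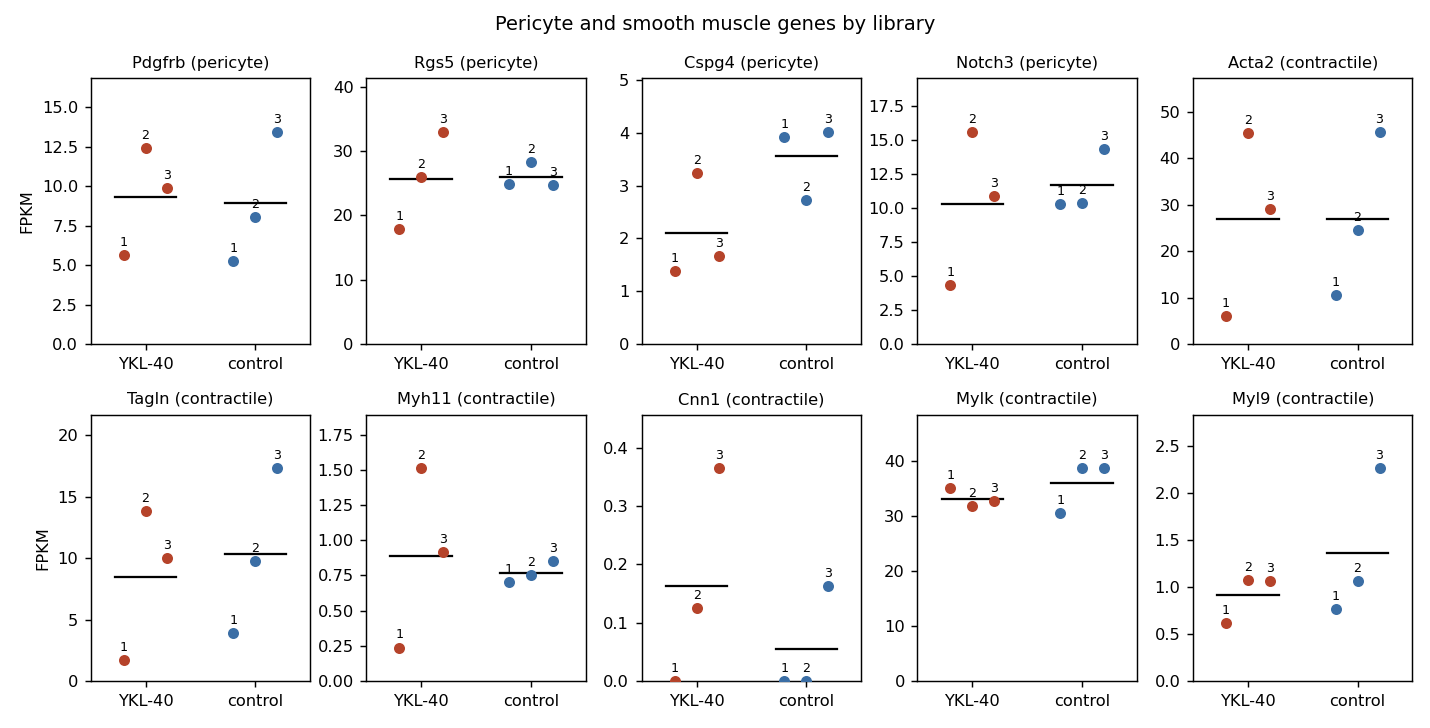
FPKM of the 10 genes in each library (points, numbered by replicate), with the group mean as a bar; the YKL-40 group is on the left of each panel and axes differ between panels. The groups overlap in every panel. YKL-40 library 1 is the lowest point for Acta2, Tagln, Notch3, Rgs5, Cspg4, Myh11 and Myl9, and is tied at 0 for Cnn1.

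The pericyte markers differed from each other in how much they varied. Pdgfrb, the PDGF-BB receptor (chromosome 18, 61045127 to 61085067, mm10), had 5.65, 12.4 and 9.90 FPKM in the YKL-40 libraries, against 5.26, 8.04 and 13.5 FPKM in the controls. Library 1 was the lowest of each group and the ranges nearly coincided. Its change was 0.08 ± 0.35 (SE), with a 95% interval from -0.74 to 0.90 and an adjusted p of 0.926 in limma.

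Notch3 (chromosome 17, 32120820 to 32166896) encodes the Notch receptor that mural cells use to mature, and it had 4.37, 15.6 and 10.9 FPKM in the YKL-40 libraries, against 10.3, 10.4 and 14.3 FPKM in the controls. The YKL-40 libraries held both its lowest and its highest value. Its change of -0.30 ± 0.38 did not pass (adjusted p = 0.719 in limma), with an interval from -1.19 to 0.60, and it was 0.17 without YKL-40 library 1. A predicted antisense gene shares 488 exon bases with Notch3, and the library kit keeps no strand, so reads of the pair cannot be told apart.

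Rgs5 (chromosome 1, 169655501 to 169695813), a regulator of G protein signalling used as a pericyte marker, had 17.9, 25.9 and 33.0 FPKM in the YKL-40 libraries, against 24.8, 28.3 and 24.7 FPKM in the controls. It was the most abundant of the 4 pericyte markers per length in every library. The controls lay inside the range of the YKL-40 group, and the change was -0.06 ± 0.20 (interval -0.53 to 0.42, adjusted p = 0.914 in limma).

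Cspg4 (chromosome 9, 56865104 to 56899870) was the gene nearest to a difference. It had 1.39, 3.24 and 1.68 FPKM in the YKL-40 libraries, against 3.92, 2.72 and 4.02 FPKM in the controls. YKL-40 library 2 lay above control 2, so the groups overlapped, while the other YKL-40 libraries lay below every control. The change of -0.59 ± 0.24 had an interval from -1.14 to -0.03 and an unadjusted p of 0.041. After adjustment over all genes it did not pass (adjusted p = 0.26 in limma), nor did it with any 1 library left out, where the change ran from -0.84 to -0.42.

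The contractile genes ranged from abundant to nearly silent. Acta2, smooth muscle alpha-actin, and Tagln, the actin-binding protein transgelin, varied the most of the 8 tested genes. Acta2 (chromosome 19, 34240336 to 34255585) had 6.11, 45.5 and 29.0 FPKM in the YKL-40 libraries, against 10.7, 24.6 and 45.7 FPKM in the controls. Its highest library was 7.48 times its lowest, while the group means were nearly equal, at 26.9 ± 19.8 and 27.0 ± 17.6 FPKM (SD, n = 3 each) in the YKL-40 and control tumours. The change was -0.16 ± 0.74 (adjusted p = 0.932 in limma), and its interval, -1.90 to 1.58, spans 0.267-fold to 2.99-fold of FPKM + 1. The interval thus includes a difference of 2-fold in either direction.

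Tagln (chromosome 9, 45929628 to 45936058) had 1.70, 13.8 and 9.98 FPKM in the YKL-40 libraries, against 3.94, 9.79 and 17.3 FPKM in the controls. The order of the libraries was that of Acta2. Its change was -0.38 ± 0.69 (interval -2.01 to 1.24, adjusted p = 0.809 in limma). Tagln shares 108 exon bases with Pcsk7, a proprotein convertase gene on the opposite strand, which had 10.8 to 13.4 FPKM over the 6 libraries, and 1241 with a predicted antisense gene that was not analysed here. In YKL-40 library 1, where Tagln was lowest, Pcsk7 was at 11.1 FPKM, and its change was 0.04 (adjusted p = 0.875 in limma). Without YKL-40 library 1 the changes of Acta2 and Tagln had the other sign, 0.63 for Acta2 and 0.36 for Tagln, and neither passed. The sign also turned without control 3, at 0.32 for Acta2 and 0.06 for Tagln.

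Mylk, the kinase that starts contraction by phosphorylating the myosin light chain, varied far less than Acta2. It lies on chromosome 16, 34745199 to 35002436, and had 35.0, 31.8 and 32.7 FPKM in the YKL-40 libraries, against 30.5, 38.7 and 38.7 FPKM in the controls. Its highest value was 1.27 times its lowest, the smallest spread of the 9 genes with values above 0 in every library. The change was -0.11 ± 0.12, with an interval from -0.38 to 0.17 that spans 0.769-fold to 1.12-fold of FPKM + 1 (adjusted p = 0.668 in limma). Annotated antisense genes share up to 548 exon bases with Mylk.

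Myl9 (chromosome 2, 156775408 to 156781657), the regulatory light chain of smooth muscle myosin that Mylk phosphorylates, was near the filter. It had 0.613, 1.08 and 1.07 FPKM in the YKL-40 libraries, against 0.762, 1.06 and 2.27 FPKM in the controls. Control 3 stood above the other 5 libraries. The change was -0.26 ± 0.25 (interval -0.84 to 0.32, adjusted p = 0.618 in limma), and without control 3 the gene fell below the filter.

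The defining genes of mature smooth muscle were low in all 6 libraries. Myh11, the smooth muscle myosin heavy chain (chromosome 16, 14194527 to 14292188), had 0.237, 1.51 and 0.917 FPKM in the YKL-40 libraries, against 0.699, 0.749 and 0.849 FPKM in the controls. The controls lay within the YKL-40 range, and the log2 difference of 0.04 had an exact two-sided permutation p of 0.9, where 0.1 is the smallest that 3 against 3 libraries allow. Cnn1, the basic calponin (chromosome 9, 22099221 to 22109221), was listed at 0, 0.125 and 0.364 FPKM in the YKL-40 libraries, against 0, 0 and 0.163 FPKM in the controls. It was at 0 in 3 of 6 libraries, and its log2 difference of 0.13 had a permutation p of 0.7. Because both were under the filter, neither entered the counts above.

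**Figure D2:**
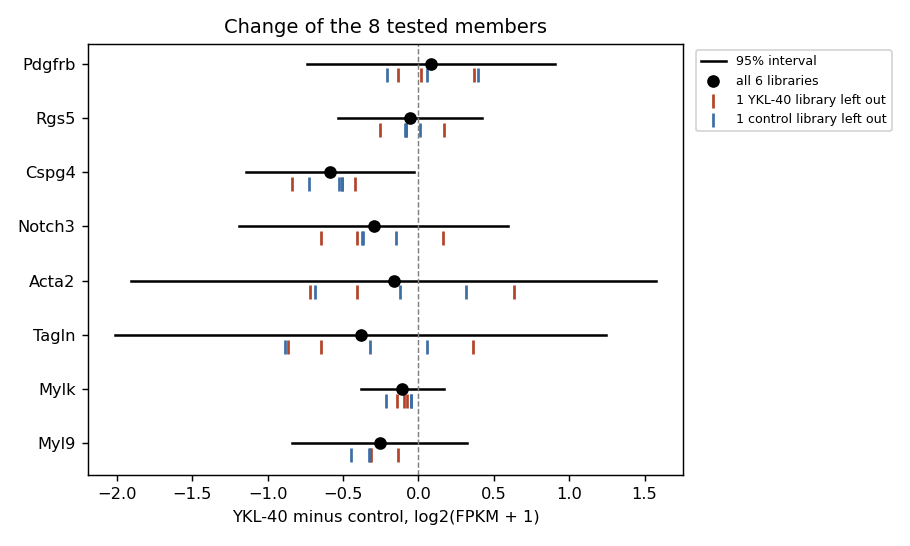
Change of the 8 tested genes, YKL-40 minus control, on the log2(FPKM + 1) scale: black points with 95% intervals from limma, and ticks for fits with 1 YKL-40 (red) or 1 control (blue) library left out. The intervals of Acta2 (-1.90 to 1.58) and Tagln are the widest and that of Mylk (-0.38 to 0.17) the narrowest; only the interval of Cspg4 excludes 0, before adjustment.

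Within each group the libraries varied widely, and several of the genes varied together from library to library. In both groups library 1 had the least Acta2 and Tagln. Across the 6 libraries, log2 values of Acta2 were compared with those of the other 9 genes, 9 relations in all, with exact permutation p-values adjusted over the 9. Acta2 followed Tagln with r = 0.991 (permutation p = 0.00139, the smallest that 6 libraries can give, adjusted p = 0.0125) and Spearman's rho = 1 (permutation p = 0.00278, adjusted p = 0.0125). It followed Pdgfrb with r = 0.950 (permutation p = 0.00417, adjusted p = 0.0125) and rho = 0.943 (permutation p = 0.0167, adjusted p = 0.0375). Without YKL-40 library 1 and control 1, the 2 libraries farthest from the median of Acta2, r was 0.926 with Tagln and 0.979 with Pdgfrb. So few libraries were left that these r values are a description. Whether the relations rest on the lowest libraries was not tested. The share of all tested genes that follow Acta2 as closely was not computed, so the relations are not shown to be particular to these genes.

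Notch3 behaved like Pdgfrb, with r = 0.902 (permutation p = 0.00278, adjusted p = 0.0125), rho = 0.943 (permutation p = 0.0167, adjusted p = 0.0375) and r = 0.978 without those libraries. Myl9 had the same rank order as Acta2, with rho = 1 (permutation p = 0.00278, adjusted p = 0.0125), but r was 0.784 (permutation p = 0.0431, adjusted p = 0.0775) and 0.581 without the 2 libraries. Myh11 passed by r alone, at 0.857 (permutation p = 0.00833, adjusted p = 0.0188), with rho = 0.829 (permutation p = 0.0583, adjusted p = 0.105) and r = 0.616 without the 2 libraries. The remaining relations did not pass. Mylk had r = 0.224 (permutation p = 0.651, adjusted p = 0.651) and rho = 0.314 (permutation p = 0.564, adjusted p = 0.634), and Cspg4 had r = 0.458 (permutation p = 0.346, adjusted p = 0.389) and rho = 0.600 (permutation p = 0.242, adjusted p = 0.311). Rgs5 had r = 0.649 (permutation p = 0.174, adjusted p = 0.260) and rho = 0.257 (permutation p = 0.658, adjusted p = 0.658), and r was -0.73 without the 2 libraries. Cnn1 had r = 0.589 (permutation p = 0.208, adjusted p = 0.268) and rho = 0.759 (permutation p = 0.117, adjusted p = 0.175), from values at or near 0. Each group held only 3 libraries, too few for a correlation within it.

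Promoters are shown because the contractile genes are textbook targets of the CArG box. Those of Acta2 and Myl9 are printed as the windows that held one, and that of Mylk as a window without. RefSeq windows of 300 bases, from 250 before to 50 after a transcription start (build GRCm38.p6), were taken for 7 of the 10 genes. No window of Pdgfrb, Tagln or Myh11 was searched. Of the 7 windows, 3 are printed 5′ to 3′ on the gene's strand. Capitals mark CArG boxes that begin with CC and end with GG and hold at most 1 base other than A or T in between, a pattern that reads alike on both strands.
Acta2, chr19:34255324-34255623, minus strand: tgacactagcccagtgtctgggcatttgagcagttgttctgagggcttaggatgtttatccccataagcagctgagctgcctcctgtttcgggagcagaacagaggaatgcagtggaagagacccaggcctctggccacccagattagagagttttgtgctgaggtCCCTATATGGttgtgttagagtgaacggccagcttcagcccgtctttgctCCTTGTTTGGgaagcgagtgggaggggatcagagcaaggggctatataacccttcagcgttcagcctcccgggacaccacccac
Myl9, chr2:156775214-156775513, plus strand: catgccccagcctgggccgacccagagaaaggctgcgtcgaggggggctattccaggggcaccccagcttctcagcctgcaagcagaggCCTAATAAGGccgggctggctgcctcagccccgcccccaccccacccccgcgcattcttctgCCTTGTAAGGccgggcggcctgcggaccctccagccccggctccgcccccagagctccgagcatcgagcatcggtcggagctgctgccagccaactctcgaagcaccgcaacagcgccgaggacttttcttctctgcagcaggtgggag
Mylk, chr16:34784700-34784999, plus strand: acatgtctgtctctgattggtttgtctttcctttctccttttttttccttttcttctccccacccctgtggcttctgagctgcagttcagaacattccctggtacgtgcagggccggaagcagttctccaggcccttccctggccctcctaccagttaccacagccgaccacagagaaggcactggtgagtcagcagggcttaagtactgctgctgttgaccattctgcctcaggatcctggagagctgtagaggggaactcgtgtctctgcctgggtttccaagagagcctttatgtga

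Acta2 held 2 such boxes, starting at positions -84 and -34 from the start used for the window, which lies 212 bases inside the outer start of the annotated gene. Myl9 also held 2, starting at -161 and -99, of which CCTAATAAGG had only A and T in its middle, and its start lies 56 bases inside the gene. The Mylk window surrounds a start 39751 bases inside that gene, and it held none, nor did those of Cnn1, Rgs5, Cspg4 and Notch3. Of 32817 RefSeq promoter windows of the same length, 9.99% held a box of this kind and 1.63% one with only A and T in the middle. A match describes the letters of the window and was not tested as a binding site or against the expression values.

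Ratios within a library were computed after the values had been seen. Only some of those computed are given, as a description. Acta2 over Tagln was 3.59, 3.29 and 2.91 in the YKL-40 libraries, against 2.71, 2.51 and 2.64 in the controls. Both genes ranged more than 7-fold, while their ratio stayed within 1.43-fold. The groups did not overlap for this ratio, with an exact two-sided permutation p of 0.1, the smallest possible here. Acta2 over Mylk, by contrast, ran from 0.174 in YKL-40 library 1 to 1.43 in YKL-40 library 2.

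Pdgfrb kept a nearly fixed proportion to Pecam1, the endothelial adhesion molecule CD31. Pecam1 had 23.5, 41.1 and 35.4 FPKM in the YKL-40 libraries, against 19.2, 28.8 and 46.3 FPKM in the controls. Pdgfrb over Pecam1 was 0.240, 0.302 and 0.280 in the YKL-40 libraries, against 0.274, 0.279 and 0.291 in the controls. The ratio ranged 1.26-fold, against 2.41-fold for Pecam1 and 2.56-fold for Pdgfrb, and the permutation p between groups was 0.9. Pecam1 gave the steadiest ratio of the 14 endothelial markers, and with the others it ranged from 1.51-fold for Robo4 to 3.32-fold for Tek. Cspg4 over Pecam1 was 0.0590, 0.0788 and 0.0473 in the YKL-40 libraries, against 0.204, 0.0943 and 0.0869 in the controls, and here the groups did not overlap (permutation p = 0.1). Rgs5, Notch3 and Acta2 over Pecam1 ranged 2.42-fold, 2.88-fold and 4.25-fold. Their groups overlapped (permutation p = 0.7, 0.4 and 0.8).

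**Figure D3:**
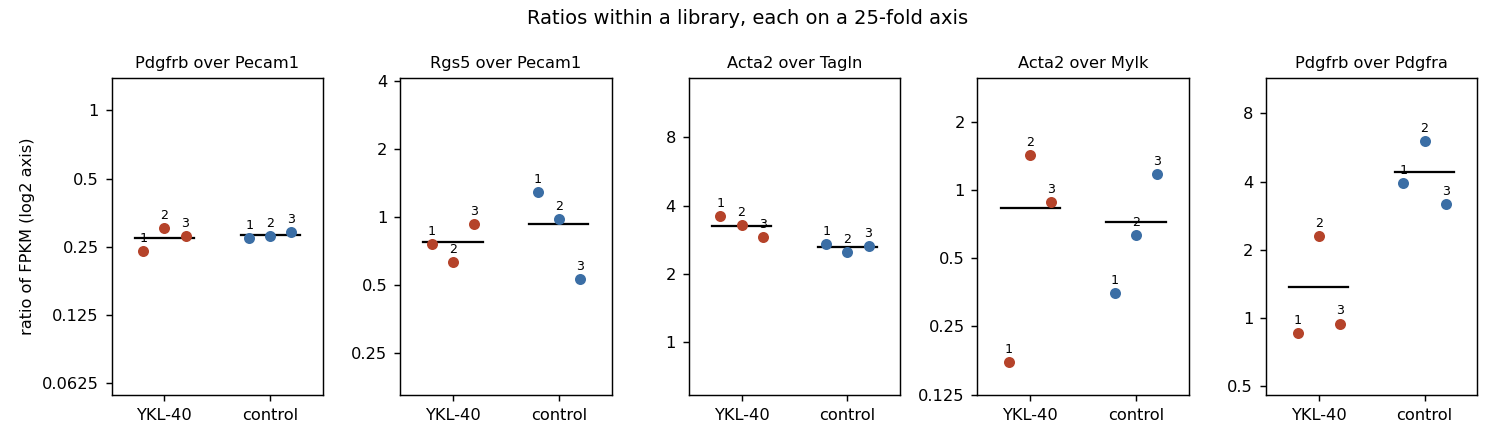
Ratios of FPKM between genes of the same library (points numbered by replicate, bars the arithmetic group mean), on log2 axes that each span 25-fold. Pdgfrb over Pecam1 (0.240 to 0.302) and Acta2 over Tagln (2.51 to 3.59) are tight, Acta2 over Mylk (0.174 to 1.43) is wide, and Pdgfrb over Pdgfra is lower in the YKL-40 libraries (0.858 to 2.30) than in the controls (3.17 to 6.06).

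Taken as a mean, fibroblast markers differed most from Acta2 and Tagln in YKL-40 library 1. There they stood at 0.62, with Acta2 and Tagln both at -1.68, each relative to its log2 mean over the 6 libraries. From control 1 to control 3 the fibroblast mean rose, as did Acta2 and Tagln. Postn, also on the list, had 11.6, 16.2 and 23.7 FPKM in the YKL-40 libraries, against 7.66, 19.0 and 36.2 FPKM in the controls. Its change was -0.09, with library 1 the lowest of each group as for Acta2. Of 11 tested fibroblast markers, 0 passed over all genes in limma, 8 were higher at an unadjusted p under 0.05, where 8.71% of all tested genes were, and the median change was 1.31. Col3a1, a fibrillar collagen, had 123, 68.6 and 143 FPKM in the YKL-40 libraries, against 9.41, 24.7 and 73.7 FPKM in the controls, and Lum, the proteoglycan lumican, had a difference of 1.61 (adjusted p = 0.0712). YKL-40 library 1 thus joined the lowest Acta2, 6.11 FPKM, to the second highest Col3a1. The receptors of the PDGF family stood apart in the same way. Pdgfra, the fibroblast receptor, had 6.58, 5.39 and 10.5 FPKM in the YKL-40 libraries, against 1.33, 1.33 and 4.25 FPKM in the controls. Its change of 1.43 ± 0.36 did not pass (adjusted p = 0.115 in limma). Pdgfrb over Pdgfra was 0.858, 2.30 and 0.944 in the YKL-40 libraries, against 3.96, 6.06 and 3.17 in the controls, groups that did not overlap (exact permutation p = 0.1, the smallest possible).

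The mean log2 level of the endothelial markers ordered the 6 libraries as Pdgfrb did, from control 1 to control 3. Of 14 tested, 0 passed, 1 was higher at an unadjusted p under 0.05, against 8.71% of all tested genes, and the median change was 0.08. Flt1, a VEGF receptor, had the highest level at 14.9, 43.0 and 34.8 FPKM in the YKL-40 libraries, against 42.0, 34.4 and 55.6 FPKM in the controls, with its lowest value, like that of Notch3, in YKL-40 library 1. Tek, the angiopoietin receptor, had the lowest p (change 0.69, adjusted p = 0.150 in limma).

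Skeletal muscle RNA was present in unequal amounts, which bears on genes that striated and smooth muscle share. The 18 skeletal muscle markers summed to 10.9, 33.9 and 7.07 FPKM in the YKL-40 libraries, against 96.1, 51.2 and 207 FPKM in the controls. Of 12 tested, 0 passed and 11 were lower at an unadjusted p under 0.05, where 9.24% of all tested genes were, and the median change was -1.89. Myl1, a fast muscle light chain, had a difference of -2.15 (adjusted p = 0.0827), and Tnnt3, a fast troponin, by -3.27 (adjusted p = 0.0881). Of the 18 markers, 4 were at 0 in at least 1 library. Acta1, skeletal actin, is close in sequence to Acta2, and had 0.570, 4.08 and 0.0413 FPKM in the YKL-40 libraries, against 7.87, 4.38 and 23.4 FPKM in the controls. In YKL-40 library 3, Acta2 stood at 29.0 FPKM with Acta1 at 0.0413 FPKM. Control 3 held the highest value of both, 45.7 FPKM for Acta2 and 23.4 FPKM for Acta1. The part of muscle RNA in the values of Acta2 and the other contractile genes was not tested.

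**Figure D4:**
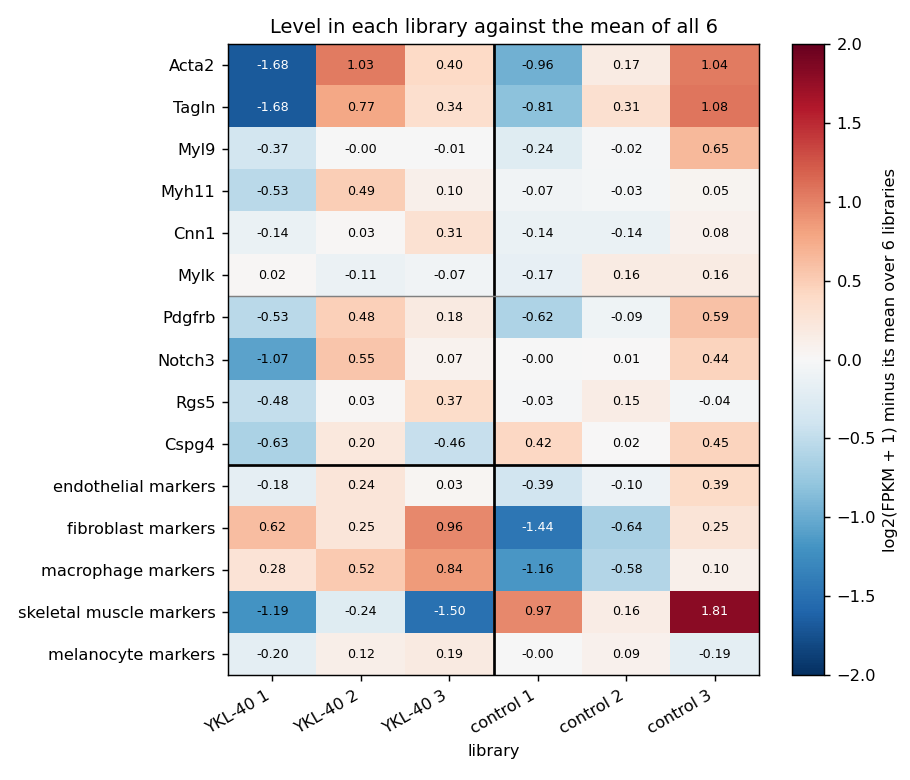
Level of the 10 genes, and mean over the tested genes of 5 marker lists, in each library, as log2(FPKM + 1) minus its mean over the 6 libraries (red above, blue below). Acta2, Tagln, Pdgfrb and Notch3 are low in YKL-40 library 1, where fibroblast markers are above their mean (0.62), and skeletal muscle markers are high in control 3 (1.81).

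Other pericyte genes lay on both sides of 0. Of 15 listed, 10 were tested and 0 passed, with 5 changes above 0, 5 below and a median of 0.04. At an unadjusted p under 0.05, 2 were higher and 1 was lower, against 8.71% and 9.24% of all tested genes. The groups did not overlap for 4 higher and 2 lower genes, against 10.3% and 14.2% of all tested genes. Cox4i2, a cytochrome oxidase subunit of mural cells, had the lowest p, at 2.22 ± 0.182 and 1.39 ± 0.149 FPKM in the YKL-40 and control groups (change 0.43, adjusted p = 0.150). Ndufa4l2, a mitochondrial protein also known for induction by hypoxia, was the most abundant and had its own order of libraries, with 93.9, 19.0 and 27.0 FPKM in the YKL-40 libraries, against 28.9, 81.2 and 89.0 FPKM in the controls. The genes that follow were chosen after their values were seen. Mcam was the 1 lower gene at an unadjusted p under 0.05. It had 15.1 ± 2.21 and 19.9 ± 2.95 FPKM in the YKL-40 and control groups, which did not overlap (change -0.38, adjusted p = 0.236). Abcc9 and Kcnj8 together form the ATP-sensitive potassium channel of pericytes. Abcc9 had 0.924, 3.17 and 2.32 FPKM in the YKL-40 libraries, against 3.20, 3.23 and 4.49 FPKM in the controls, so the groups did not overlap. Kcnj8 had 0.815, 2.57 and 1.18 FPKM in the YKL-40 libraries, against 1.53, 3.69 and 3.69 FPKM in the controls, and here they overlapped. Their changes were -0.62 and -0.66, and neither passed (adjusted p = 0.3 and 0.342 in limma). Opposite in sign were Anpep, an aminopeptidase (0.75, adjusted p = 0.199), Angpt1, a ligand of Tek (0.80, adjusted p = 0.301), and Gja4, a connexin (0.47, adjusted p = 0.320), whose groups did not overlap.

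Other smooth muscle genes did not reach the unadjusted threshold. Of 20 other smooth muscle genes, 14 were tested and 0 passed, with a median change of 0.04. At an unadjusted p under 0.05 there were 0, against 18.0% of all tested genes. Csrp1, a LIM protein of the actin cytoskeleton, had 753 ± 33.4 and 684 ± 18.0 FPKM in the YKL-40 and control groups, and Cald1, caldesmon, had 33.1 ± 2.22 and 41.7 ± 8.58 FPKM, the lowest p of the list (adjusted p = 0.321). Of 13 contractile genes shared with striated muscle, 9 were tested and 0 passed, with 3 lower at an unadjusted p under 0.05, against 9.24% of all tested genes (median change -0.25). Those 3 were Des (-1.37), the intermediate filament desmin, Tpm2 (-1.05), a tropomyosin, and Casq2 (-0.67), a calcium store protein, with adjusted p from 0.138 to 0.232, and the skeletal muscle markers were lower in the same libraries.

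Among regulators of the contractile program, Myocd, the gene of myocardin, reached at most 0.121 FPKM in a YKL-40 library and 0.108 FPKM in a control. Mrtfa, which encodes an MRTF co-activator, had 27.1 ± 4.10 and 26.8 ± 2.36 FPKM (change 0.01). Of 10 regulators found, 6 were tested and 0 passed (median change 0.08). The lowest p was that of Mef2c, a MADS box factor at 11.7 ± 3.78 and 16.8 ± 0.733 FPKM, with a difference of -0.53 (adjusted p = 0.231).

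The ligands of Pdgfrb and Notch3 that were tested did not pass either. Of 5 PDGF family genes other than Pdgfrb, 3 were tested and 0 passed, with a median change of 0.33. Pdgfra alone was higher at an unadjusted p under 0.05, where 8.71% of all tested genes were. Pdgfb, a ligand of Pdgfrb, had 4.43, 6.83 and 3.68 FPKM in the YKL-40 libraries, against 1.86, 3.68 and 6.43 FPKM in the controls, which overlapped (change 0.33, adjusted p = 0.649 in limma). Of 12 Notch pathway genes other than Notch3, 9 were tested and 0 passed, with a median change of -0.21. At an unadjusted p under 0.05, 1 was higher and 1 was lower, against 8.71% and 9.24% of all tested genes. Jag1, a Notch ligand, had 12, 12.5 and 12.1 FPKM in the YKL-40 libraries, against 17.4, 15.5 and 16.4 FPKM in the controls. Its groups did not overlap, as for 24.4% of all tested genes (change -0.40 ± 0.09, adjusted p = 0.0912). Rbpj, the DNA-binding partner of Notch receptors and the most abundant of these genes, had a difference of 0.33 (adjusted p = 0.184), opposite in sign to Jag1. The groups did not overlap for Rbpj either.

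Compared per length, Myh11, Cnn1 and Myl9 stood far below the most abundant genes of their families. Myh9, the non-muscle myosin heavy chain, had 475 ± 78.4 and 449 ± 87.5 FPKM in the YKL-40 and control groups, where Myh11 had 0.888 ± 0.637 and 0.766 ± 0.0763 FPKM. Cnn3, an acidic calponin, had 95.5, 92.8 and 95.3 FPKM in the YKL-40 libraries, against 91.8, 88.5 and 92.3 FPKM in the controls, while Cnn1 reached at most 0.364 FPKM. Myl12a, the non-muscle relative of Myl9, had 224 ± 13.4 and 263 ± 105 FPKM. Of 9 tested non-muscle actin, myosin and calponin genes, 0 passed over all genes, while 3 were higher at an unadjusted p under 0.05, against 8.71% of all tested genes (median change 0.09). Actb (0.45, adjusted p = 0.200) and Actg1 (0.31, adjusted p = 0.273), the cytoplasmic actins, were among them, and Actg1 was the most abundant.

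**Figure D5:**
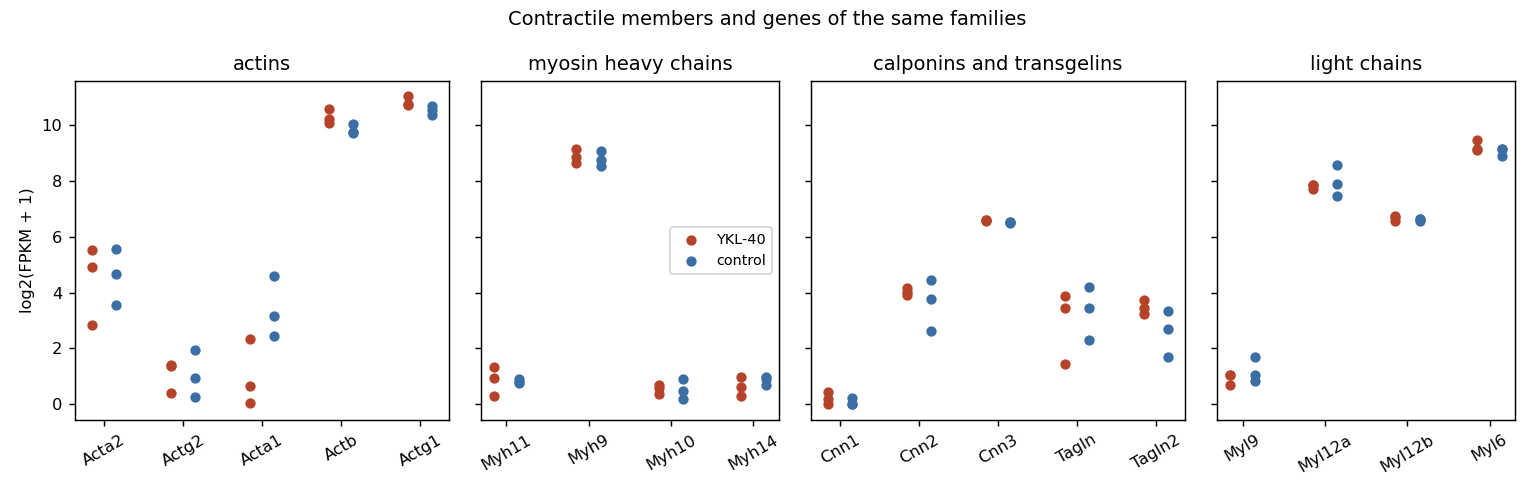
Levels of contractile members and of genes of the same families, as log2(FPKM + 1) in each library (red YKL-40, blue control). Myh11, Cnn1 and Myl9 lie far below Myh9, Cnn3 and Myl12a in all 6 libraries, while Acta2 lies between Actg2 and the cytoplasmic actins Actb and Actg1.

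The genes with patterns most like the mural genes were taken as a description, by Pearson's correlation over the 6 libraries with the mean of the standardised log2 values. For the pericyte set they were Cx3cr1 (r = 0.993), a chemokine receptor of monocytes and macrophages, then Eya3, Mapk14, Scml4 and Cnot3 (r = 0.991 to 0.985). The pericyte mean was -1.50 in YKL-40 library 1 and -0.10 to 0.69 in the other libraries, and all 5 genes were lowest in that library. For the contractile set they were Piezo2 (r = 0.993), a mechanically gated ion channel, then Jak1, Gxylt2, Rnf166 and Col8a1 (r = 0.986 to 0.980). With 6 libraries these values are a description only. Piezo2 had 3.23, 7.5 and 7.08 FPKM in the YKL-40 libraries, against 3.35, 6.30 and 9.26 FPKM in the controls, with library 1 the lowest of each group as for Acta2. Col8a1, a short-chain collagen of vessel walls, had 1.35, 4.52 and 4.21 FPKM in the YKL-40 libraries, against 1.15, 3.18 and 7.15 FPKM in the controls.

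Macrophage and fat cell markers were also measured. All 9 macrophage markers had differences above 0 and 0 passed, with 7 higher at an unadjusted p under 0.05, against 8.71% of all tested genes, and a median change of 1.14. The lowest p was that of C1qa, a complement subunit, at 76.2 ± 20.0 and 22.2 ± 9.82 FPKM in the YKL-40 and control groups. Their sums, 199 to 329 FPKM in the YKL-40 group and 57.0 to 156 FPKM in the controls, moved with the group, unlike Acta2 or Pdgfrb. Of 6 adipocyte markers, 2 were tested and 0 passed (median change 0.22), with Fabp4, a fatty acid carrier, at 72.6 ± 17.2 and 75.2 ± 16.7 FPKM and Lipe, a lipase, at 1.45 ± 0.497 and 0.725 ± 0.106 FPKM. The part of these cells in the values of the mural genes was not tested. Gpnmb, the melanocyte marker of lowest p, had a difference of 0.35 (adjusted p = 0.126 in limma).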

How the data were processed

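Per the labels' protocols, libraries of the 6 tumours were built from 2 µg of RNA each with Illumina's TruSeq RNA kit, version 2. The deposited table gives 1 FPKM value per gene and library. Tools listed in the submitters' processing notes, with no roles, are HISAT2, StringTie, DESeq2, limma and bcl2fastq 2.0, with the build mm10. The annotation was not stated.

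The log2 of FPKM + 1 was analysed, a scale on which changes of low genes are understated. A gene entered the test at a mean of 1 FPKM or more, which 11241 genes reached. Groups were compared with limma 3.58.1 in R 4.3.3, with a variance trend, two-sided, with Benjamini-Hochberg adjustment over all tested genes and a threshold of 0.05. Every adjusted p in the text is from this fit unless a permutation test is named. Members under the filter, ratios and correlations were tested by exact permutation. The fit was tested on simulated data. Without counts, no counting interval is given. Relative depth is the most common ratio among genes below 0.3 FPKM. Exon overlaps came from GENCODE M21 (GRCm38), and positions from RefSeq GRCm38.p6.

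The members and 13 further lists were chosen with earlier results of these data known. Beside the members, the text names the gene of lowest p and the most abundant gene of each further list, and the 5 genes most like each set. Of the genes this rule takes, 1 is left unreported here. Cx3cr1 to Col8a1 were taken by the last part of that rule, and a gene outside the rule was picked with its values in view. The alternatives tried were smaller pseudocounts (0.1, 0.01), testing every gene, a filter at 5 FPKM, 2 scalings, no variance trend, array quality weights, the replicate number as a block, and leaving out each library.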

Additional observations from a re-analysis of the deposited data

How the results depend on the processing

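The count of 0 called pericyte or smooth muscle genes was 0 under all of the alternatives run, including each fit without 1 library. The lowest adjusted p of any of them was 0.0799, for Cspg4 without YKL-40 library 2. Cspg4, Mylk and Cnn1 kept their sign under every alternative run for them, but not their size. Myl9 kept its sign in the fits that tested it. Without control 3, its highest library, it fell below the filter, so its sign there is not known from these fits. With pseudocounts of 0.1 and 0.01, Cnn1 was at 0.66 and 1.62, Myl9 at -0.42 and -0.46 and Cspg4 at -0.80 and -0.83. With 1 library left out, Cnn1 ran from 0.01 (without YKL-40 library 3) to 0.24, Mylk from -0.22 to -0.05 and Cspg4 from -0.84 to -0.42. Myl9 ran from -0.44 to -0.14, with no value without control 3. With array quality weights the changes of Rgs5 and Acta2 were 0.10 and 0.000398, above 0. With pseudocounts of 0.1 and 0.01 the difference of Myh11 was -0.0743 and -0.14. When 1 library was left out, the change ran from -0.21 to 0.40 for Pdgfrb, -0.25 to 0.17 for Rgs5, -0.65 to 0.17 for Notch3, -0.72 to 0.63 for Acta2, -0.89 to 0.36 for Tagln and -0.20 to 0.31 for Myh11. The count over all genes, 49, was 1 without a filter, 1111 with array quality weights and 120 in the fit that blocked on replicate number. It ran from 0 (without control 2, with 1345 genes at an unadjusted p under 0.05) to 238 (without YKL-40 library 2) when 1 library was left out, with 4 without YKL-40 library 1, 2 without control 1 and 209 without control 3. Same-numbered libraries did not deviate together (correlations of -0.08, -0.19 and 0.00170 over all tested genes), so the numbers were not taken as pairs. The cause of these shifts was not tested. Standard errors, from 3 libraries per group, ran from 0.12 for Mylk to 0.74 for Acta2 in the main fit. In the fit that blocked on replicate number most were smaller, such as those of Acta2 (0.32), Tagln (0.27) and Pdgfrb (0.20). Those of Cspg4 (0.26) and Mylk (0.14) were larger.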
